A study of Mus musculus with 32 samples.

Results

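The Vκ segments Igkv11-106, Igkv12-40 and Igkv9-128, all annotated as pseudogenes, had rearranged Igκ reads on the Cast allele and no read on the B6 allele in any of 10 libraries. They were chosen by these allelic counts, as 3 of the 112 Vκ segments counted, so that the contrast between the alleles is described here and not tested. Rearranged Igκ RNA was sequenced (Igκ VJ-seq) from bone-marrow-derived pre-B cells of C57BL6/Castaneous (B6/Cast) F1 mice, which inherit 1 B6 and 1 Cast copy of the locus. The clones 3, 4, 8, B52 and E9-3 (E93 in the labels) were each derived by limiting dilution and grown on feeder cells with IL-7, and rearrangement was induced by removing IL-7 for 48 h. Clone 4 was also sampled at 12, 24, 36 and 48 h. For clone 3 the study describes an apparent loss of most of the Cast Vκ region in late passages. The passage of its VJ-seq library is not given in the sources used here, which limits its Cast shares. The pre-B pool is listed in the labels as a culture beside the 48 h libraries, while the methods of the study describe cells taken from the bone marrow of a 12-week-old female for this assay, and which of these it is could not be settled. No other treatment or mutation is given for the groups, and there was 1 library for each clone and time, except clone 4 at 48 h, which was sequenced in both tables.

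A Vκ segment consists of a leader exon, an intron and a V exon, followed by a recombination signal. This signal is a heptamer and a nonamer separated by a short spacer, at which the RAG recombinase cuts to join the segment to a Jκ segment. A pseudogene that keeps its signal can be joined, although a stop codon or a lost splice site keeps it from encoding a light chain. In Igκ VJ-seq, cDNA is primed in the Cκ exon, so that a read on a Vκ segment comes from a polyadenylated transcript of a rearranged allele. Reads were assigned to an allele at positions where the B6 and Cast sequences differ. Fewer cells with a rearrangement and less RNA per rearrangement cannot be told apart in these counts.

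The sequences of the segments, from the mm10 reference, which is the B6 sequence, show what each of them holds on the allele without reads. The Cast sequence was not analysed here. Igkv11-106 lies at chr6:68339527-68339995 on the plus strand, Igkv12-40 at chr6:69879350-69879819 on the minus strand and Igkv9-128 at chr6:67847409-67847874 on the plus strand. They were the 25th, 77th and 9th of the 111 segments found in the annotation, counted from the end of the locus farthest from Cκ, and lay 2386440, 846616 and 2878561 bases from the Cκ exon. All 3 recombination signals are shown, with the heptamer and nonamer in capitals, beside that of the functional segment closest in sequence to each. They read 5′ to 3′ on the strand of the segment and lie at chr6:68339996-68340023 for Igkv11-106, chr6:69879322-69879349 for Igkv12-40 and chr6:67847875-67847902 for Igkv9-128:
Igkv11-106 recombination signal: CACAGTGatacaagtaatgACATAAACC
Igkv11-125 recombination signal: CACAGTGatacaagtcataACATAAACC
Igkv12-40 recombination signal: CACAGTGattcaagccatgACATAAACC
Igkv12-46 recombination signal: CACAGTGattcaagccatgACATAAACC
Igkv9-128 recombination signal: CACAGTGattcaaatcataACATAAACC
Igkv9-123 recombination signal: CACAGTGatacaaatcataACATAAACC
Each of the pseudogenes had the heptamer CACAGTG, a spacer of 12 bases and the nonamer ACATAAACC, with 1 mismatch to ACAAAAACC. Read on the segment's own strand, this heptamer was present in 95 of the 111 segments (85.6%) and this nonamer in 26 (23.4%). These counts take the letters at a fixed distance from the annotated end of the V exon, so that a signal shifted against it, as the nonamer of the pseudogene Igkv12-47 is, was not counted. The signal of Igkv12-40 was identical to that of Igkv12-46, and the signals of the other two differed from those of their relatives only in the spacer.

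The octamer, ATTTGCAT or its reverse complement ATGCAAAT, is bound by Oct factors in Igκ promoters. It is shown in capitals with 12 bases on either side:
Igkv11-106 octamer window: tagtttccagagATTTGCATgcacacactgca
Igkv12-40 octamer window: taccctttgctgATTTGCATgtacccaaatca
Igkv9-128 octamer window: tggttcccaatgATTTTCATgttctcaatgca
Within 300 bases before the annotated start, Igkv11-106 and Igkv12-40 held the octamer exactly, as did 80 of the 111 segments (72.1%). The closest match before Igkv9-128 was ATTTTCAT, with 1 mismatch. These matches are descriptions of the letters in this window on the B6 sequence.

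The V exons of Igkv12-40 and Igkv9-128 each contained a single in-frame stop codon, in capitals, and are shown with the last 300 bases of the V exon of Igkv11-106, which had none in its best reading frame. They cover chr6:69879350-69879647, chr6:67847577-67847874 and chr6:68339696-68339995, respectively:
Igkv12-40 V exon: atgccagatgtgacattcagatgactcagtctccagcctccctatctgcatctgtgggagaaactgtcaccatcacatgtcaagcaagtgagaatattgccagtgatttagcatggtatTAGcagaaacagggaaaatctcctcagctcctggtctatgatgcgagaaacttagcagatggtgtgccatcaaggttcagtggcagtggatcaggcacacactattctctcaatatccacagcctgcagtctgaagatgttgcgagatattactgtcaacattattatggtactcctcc
Igkv9-128 V exon: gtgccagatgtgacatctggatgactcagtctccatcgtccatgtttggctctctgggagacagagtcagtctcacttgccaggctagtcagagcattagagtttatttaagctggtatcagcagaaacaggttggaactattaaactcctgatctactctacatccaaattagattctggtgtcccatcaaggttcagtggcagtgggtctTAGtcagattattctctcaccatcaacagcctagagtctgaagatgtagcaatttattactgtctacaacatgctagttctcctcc
Igkv11-106 V exon, last part: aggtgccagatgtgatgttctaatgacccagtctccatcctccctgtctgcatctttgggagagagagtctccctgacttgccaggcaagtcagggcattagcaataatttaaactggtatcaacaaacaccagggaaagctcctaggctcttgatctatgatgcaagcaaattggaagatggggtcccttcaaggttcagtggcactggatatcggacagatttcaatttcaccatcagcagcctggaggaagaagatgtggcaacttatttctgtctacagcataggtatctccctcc
In Igkv12-40 the stop codon TAG began at position 120 of the V exon, counted from its 5′ end, where the substitution against Igkv12-46 was C120T, 1 of 20 between the exons. In Igkv9-128 the stop codon TAG began at position 213, with the substitutions G213T and G214A against Igkv9-123, 2 of 35. Both segments kept GT and AG at the ends of the intron. Of the 13 annotated pseudogenes, 8 had no stop codon in the V exon in its best reading frame, as did 98 of 98 functional segments. Among these 8, the frame of the annotated transcript held stop codons in Igkv17-134 (10), Igkv11-106 (6) and Igkv12-47 (1).

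Igkv11-106 differed from Igkv11-125 at the end of the leader exon. The 20 bases before and after the aligned end of that exon are shown, with the next 2 bases in capitals:
Igkv11-106 first exon end: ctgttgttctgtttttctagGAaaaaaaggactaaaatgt
Igkv11-125 first exon end: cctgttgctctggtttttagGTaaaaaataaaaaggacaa
Igkv11-125 had the splice donor GT at this place. Igkv11-106 had GA, and a gap of 6 bases followed in the alignment, which covered 515 columns with 87.2% identity. The annotated intron of Igkv11-106 ended instead in CT and AC, its annotated leader exon had 27 bases, and its annotated transcript contained 6 stop codons. Thus on the B6 sequence Igkv12-40 and Igkv9-128 each had a stop codon in the V exon and Igkv11-106 lacked the splice donor of its relative, while the recombination signal was of the same form in all of them.

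Over the 10 libraries, Igkv11-106 had 15113 Cast reads, Igkv12-40 had 5273 and Igkv9-128 had 102, each with 0 B6 reads. In the pool 0 of 184251 B6 reads allowed a share of up to 0.00163%, and in clone E9-3, the clone with the fewest B6 reads, 0 of 18405 allowed up to 0.0163%, taking 3 reads as the limit of a count of 0. The limits were weaker in the time course, from 0.0357% at 48 h to 0.21% at 12 h (1463 B6 reads) and 0.32% at 24 h (933 B6 reads). Ranges in parentheses after a share are exact 95% (Clopper-Pearson) intervals. Intervals and limits cover counting error only, since PCR reads without molecular identifiers are not independent molecules. Of the 112 segments, 9 had no B6 read in any library. Besides the 3 pseudogenes they were Igkv17-134, a pseudogene with 2 Cast reads, both in clone E9-3, and 5 segments with no read on either allele. No functional segment had Cast reads and 0 B6 reads. The reverse pattern, B6 reads and 0 Cast reads, was found in 15 segments. Just outside the rule, Igkv1-35 had 5 B6 and 158 Cast reads, Igkv14-130 had 6 and 16, and Igkv6-29 had 8 and 247.

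**Figure D1:**
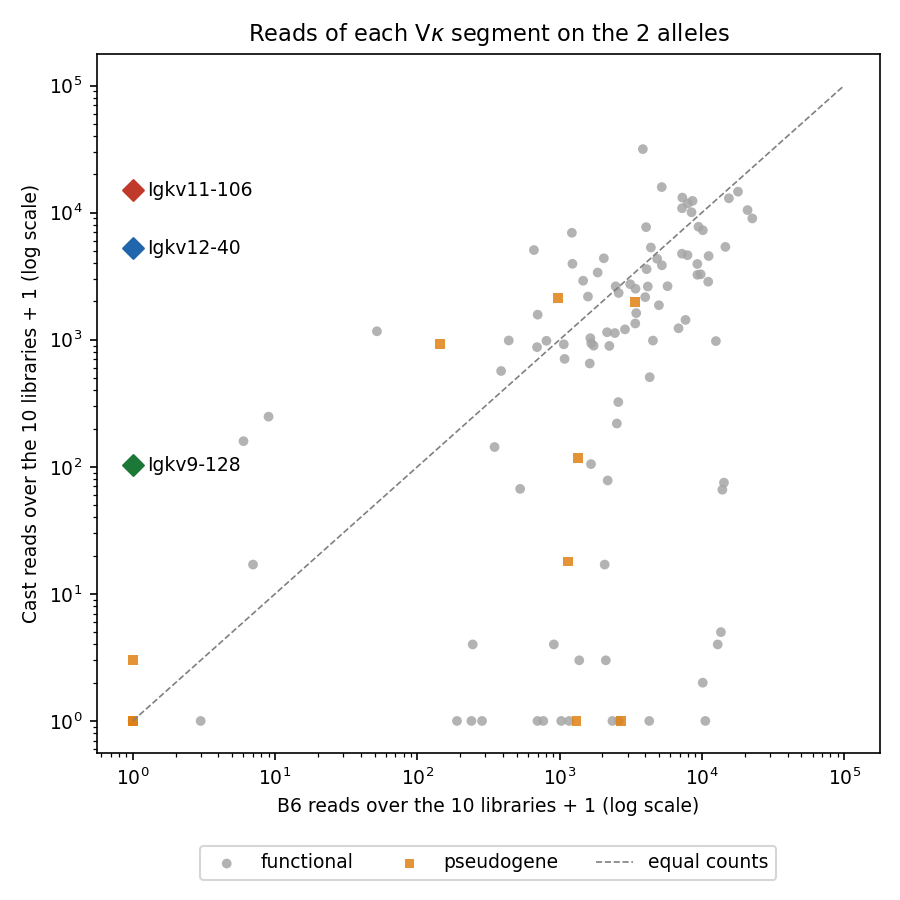
Reads of each of the 111 Vκ segments found in the annotation over the 10 libraries on the B6 allele (x axis) and the Cast allele (y axis), both as reads + 1 on log scales, with 1 point for each segment. Igkv8-23-1, not found there (765 B6 and 0 Cast reads), is not drawn. The 3 pseudogenes lie on the left edge at 0 B6 reads, with 15113, 5273 and 102 Cast reads, apart from the functional segments, none of which has Cast reads and 0 B6 reads.

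Igkv11-106 was read on the Cast allele in all 10 libraries and was among the most abundant Cast segments. The pool gave 6483 reads, which was 4.74% of its Cast reads (interval 4.63 to 4.86). Clone 4 gave 1393 reads or 7.63% (7.25 to 8.02), clone 8 gave 2695 or 6.10% (5.88 to 6.33) and clone 3 gave 3207 or 3.97% (3.83 to 4.10). The lowest shares came from clone E9-3 with 371 reads or 2.34% (2.11 to 2.58) and clone B52 with 387 or 1.64% (1.48 to 1.81). The clones thus spanned a 4.66-fold range and had a median of 3.97%. Their intervals did not overlap, but neither did those of the clone 4 libraries at 48 h (7.25 to 8.02 here, 11.7 to 14.4 in the time course). Over both alleles it made up 2.02% of the reads of the pool and between 0.560% (clone B52) and 2.26% (clone 8) of the reads of a clone. Among Cast segments it ranked 7 in the pool, and 2, 3, 5, 10 and 11 in clones 4, 8, 3, E9-3 and B52, respectively. In each of the 10 libraries it ranked first among the annotated pseudogenes on Cast. The segments with the most Cast reads were Igkv1-110 in the pool with 7.99%, Igkv2-137 in clones 3, 4 and 8 with between 12.8% and 14.4%, and Igkv3-7 in clones B52 and E9-3 with 27.7% and 21.9%.

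Igkv12-40 was a segment of intermediate abundance. The pool gave 2512 reads, which was 1.84% of its Cast reads (1.77 to 1.91). Clone 8 gave 1426 reads or 3.23% (3.07 to 3.40), clone 4 gave 374 or 2.05% (1.85 to 2.26) and clone 3 gave 741 or 0.916% (0.852 to 0.985). Clone B52 gave 105 reads or 0.444% (0.363 to 0.537), and clone E9-3 only 47 or 0.296% (0.218 to 0.393). Again clones 8 and 4 were the highest and clones B52 and E9-3 the lowest, here with a 10.9-fold range and a median of 0.916%, which was 1.48% without clone B52 or without clone E9-3. The segment ranked 19 on Cast in the pool, and 10, 14, 32, 36 and 50 in clones 8, 4, 3, B52 and E9-3, respectively. It made up 0.783% of all reads of the pool and between 0.137% (clone E9-3) and 1.20% (clone 8) of those of a clone.

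Igkv9-128 was rare and had no read in the deepest library. It had 64 Cast reads in clone 8, 17 in clone 3, 16 in clone 4 and 1 in clone E9-3, and 0 in the pool and in clone B52. Those of clone 8 were 0.145% of its Cast reads (0.112 to 0.185; rank 58), those of clone 4 were 0.0876% (0.0501 to 0.142; rank 61) and those of clone 3 were 0.0210% (0.0123 to 0.0337; rank 75). The single read in clone E9-3 lay under the limit of 3 reads. In the pool 0 of 136700 Cast reads allowed a share of up to 0.00220%, and in clone B52 0 of 23648 allowed up to 0.0127%. The first limit lies below the intervals of clones 3, 4 and 8, while the second lies within that of clone 3.

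**Figure D2:**
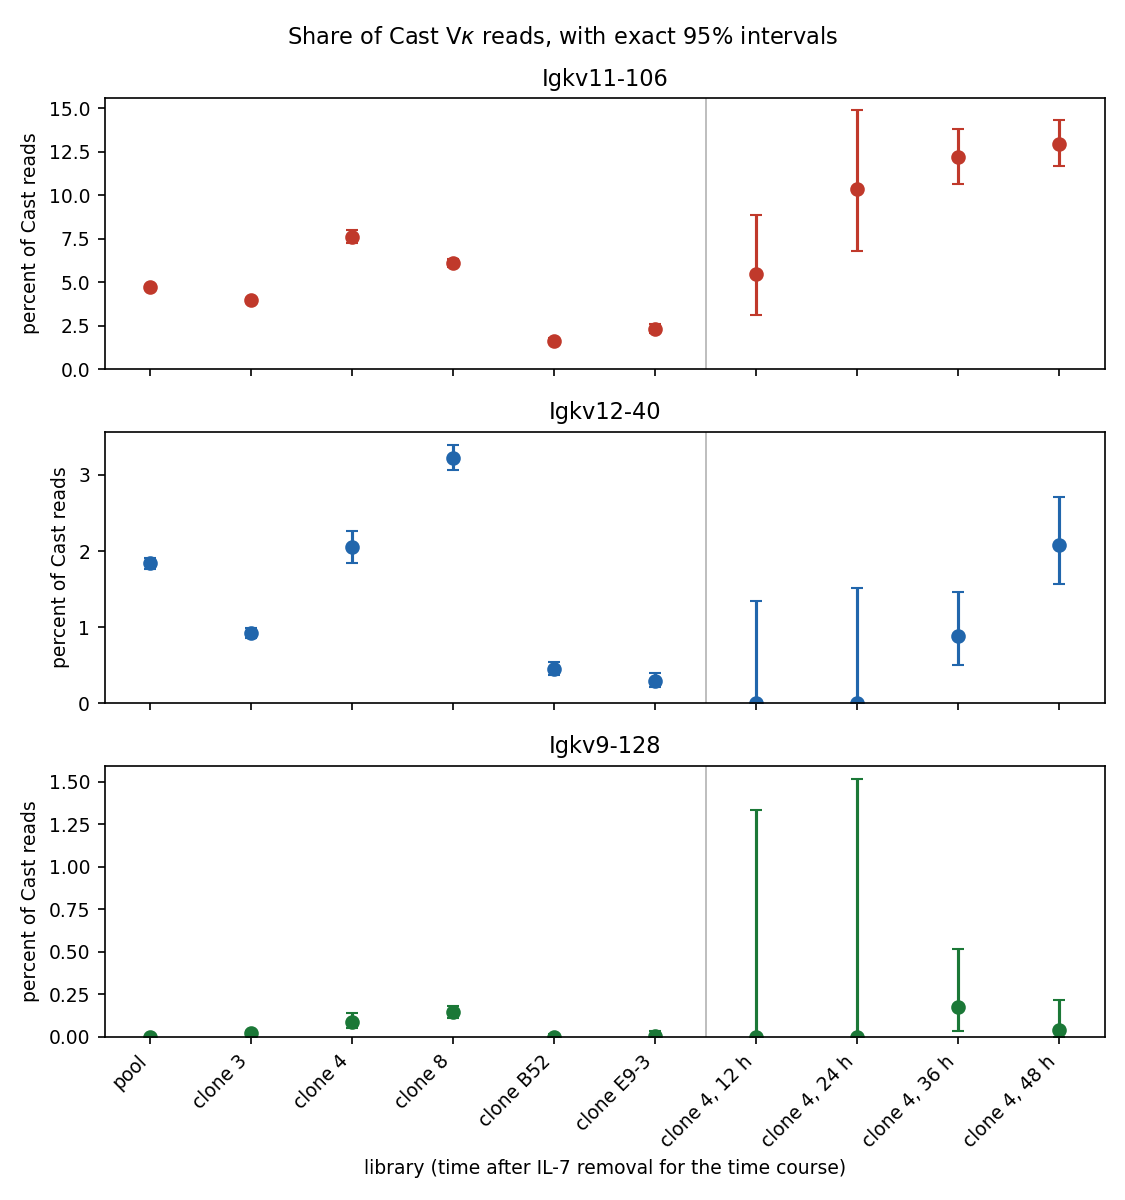
Percent of Cast reads of each pseudogene (y axis, a separate linear scale from 0 in each panel) in the pool, the 5 clones at 48 h and the clone 4 time course (x axis), with exact 95% intervals as bars. Among the 5 clones of the first table, Igkv11-106 and Igkv12-40 are highest in clones 4 and 8 and lowest in clones B52 and E9-3, and Igkv9-128 reaches 0.145% in clone 8.

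Together the 3 segments made up 6.58% (6.45 to 6.71) of Cast reads and 2.80% of all reads in the pool. In the clones the sum ran from 2.08% (1.90 to 2.27) of Cast reads in clone B52 to 9.76% (9.34 to 10.2) in clone 4, with a median of 4.90%. In the clone 4 library of the time course at 48 h it was 15.1% (13.7 to 16.6). Igkv11-106 had between 1.89 times (clone 8) and 7.89 times (clone E9-3) the reads of Igkv12-40 in the clones, and 2.58 times in the pool. Of the Cast reads on the 13 annotated pseudogenes, the 3 segments held 89.7% in the pool and between 60.6% (clone E9-3) and 80.4% (clone 4) in the clones.

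To ask whether their use differed between libraries, the Cast reads of a segment against the other Cast reads were compared for each pair of the pool and clones (15 pairs, Fisher's exact test, two-sided, Benjamini-Hochberg over the segments of a pair). With 1 library for each clone in this table, the test compares libraries, not clones. Over all segments with at least 20 Cast reads in a pair, 652 of 1117 comparisons (58.4%) differed by at least 2-fold at an adjusted p under 0.05, which is the background for the counts of the pseudogenes. Igkv11-106 passed in 7 of 15 pairs. Its share in clone B52 was 4.66-fold lower than in clone 4, 3.73-fold lower than in clone 8, 2.42-fold lower than in clone 3 and 2.90-fold lower than in the pool. In clone E9-3 it was 3.27-fold lower than in clone 4, 2.61-fold lower than in clone 8 and 2.03-fold lower than in the pool. Among clones 3, 4, 8 and the pool, and between clone E9-3 and clones B52 and 3, it differed by less than 2-fold. Igkv12-40 passed in 11 of 15 pairs, from a 2.01-fold higher share in the pool than in clone 3 to a 10.9-fold higher share in clone 8 than in clone E9-3 (adjusted p = 4.77e-130, Fisher's exact test). The 4 pairs that did not pass were the pool with clone 4 and with clone 8, clones 4 and 8, and clones B52 and E9-3. Igkv9-128 reached 20 reads in 6 pairs, nearly always through its 64 reads in clone 8, so that no count of its calls is given. As a description, its share in clone 8 was 6.89-fold higher than in clone 3 and 1.65-fold higher than in clone 4, and at least 66.0-fold and 11.4-fold higher than in the pool and clone B52, taking 3 reads in place of 0. With all reads of a library as the denominator, 667 of 1117 comparisons over all segments (59.7%) passed. The calls of Igkv11-106 for clone E9-3 against the pool and clone 4 were lost, as were those of Igkv12-40 for clone 3 against the pool and clone 4. Under the same setting clone 8 passed over clone 4 for Igkv12-40 (2.07-fold).

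The size that such differences reach without a change of clone or time could be described only by clone 4 at 48 h, the only condition sequenced as a pair of libraries. Of this pair, 1 library belongs to the time course, while the pool and clones were compared without the time course. On Cast, Igkv8-30 had 129 reads in the library beside the other clones and 0 in the time-course library. Igkv8-28 had 109 and 0, and Igkv4-59 had 0 and 30. A difference between the time course and the other libraries is thus included in these values and was not separated. Between these libraries 23 of 63 segments (36.5%) passed the same test. The median segment differed by 1.96-fold and the 90th percentile was 7.36-fold. This percentile was above the largest difference of Igkv11-106 among the pool and clones (4.66-fold). For Igkv12-40, only the difference between clones 8 and E9-3 (10.9-fold) was above it. Igkv11-106 made up 12.98% (11.7 to 14.4) of Cast reads in the time-course library, with 331 reads, and 7.63% in the other, a 1.70-fold difference, and ranked 1 and 2. Its difference was under 2-fold and did not pass, although counting error alone was exceeded (adjusted p = 8.0e-17, Fisher's exact test). Igkv12-40 made up 2.08% (1.56 to 2.71) with 53 reads and 2.05%, a 1.02-fold difference, and ranked 14 in both. Igkv9-128 had 1 read in the time-course library and 16 in the other, which was too few to test. The mean chi-square statistic between these libraries was 25.4. With counts divided by this value, 333 of 1117 comparisons over all segments (29.8%) passed among the pool and clones. Igkv11-106 still passed in its 7 of 15 pairs and Igkv12-40 in 9 of 15, without those of clone 3 with clones B52 and E9-3.

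In the clone 4 time course, Igkv11-106 had Cast reads from the first sample on. At 12 h it had 15 of 274 Cast reads, a share of 5.47% (3.10 to 8.87), and ranked 4. The 24 h sample gave 25 of 241 reads, or 10.4% (6.83 to 14.9), with a rank of 3. By 36 h it ranked 1, with 206 of 1690 reads or 12.2% (10.7 to 13.8), and it kept this rank at 48 h, with 331 of 2550 reads or 12.98% (11.7 to 14.4). The intervals of the first 2 samples were wide and overlapped. It was 2.37-fold higher at 48 h than at 12 h (adjusted p = 0.0017, Fisher's exact test), where 9 of 40 segments (22.5%) passed, and 2.23-fold higher at 36 h than at 12 h. Over the 6 pairs of times 35 of 182 comparisons (19.2%) passed. These differences depended on the denominator. As a share of all reads of the library, Igkv11-106 made up 0.864% in the first sample and 2.13%, 2.91% and 3.02% in the next 3, and the later samples were 2.47-fold, 3.36-fold and 3.50-fold higher than 12 h, all of which passed, as did 55 of 182 comparisons over all segments (30.2%). On the Cast allele, Igkv10-96 alone had 151 of the 274 reads at 12 h (55.1%). Without Igkv10-96 the share of Igkv11-106 was 12.2% at 12 h and 13.5% at 48 h (adjusted p = 0.85, Fisher's exact test), and no pair of times then passed for it, with 15 of 176 comparisons over all segments passing (8.52%). Its calls on Cast reads were also lost with counts divided by the excess variation, at low counts.

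Igkv12-40 had 0 Cast reads at 12 h and at 24 h, 15 at 36 h and 53 at 48 h. The counts of 0 allowed shares of up to 1.09% at 12 h and 1.24% at 24 h. Each limit lies above its share of 0.888% (0.498 to 1.46) at 36 h, so that neither sample alone excludes this share. At 48 h its share was 2.08%, 2.34-fold higher than at 36 h (adjusted p = 0.036, Fisher's exact test), where 2 of 43 segments (4.65%) passed. This call was lost with a minimum of 1 read and with all reads as the denominator. With divided counts it was also lost, at low counts. Igkv9-128 had 3 Cast reads at 36 h, 1 at 48 h and 0 before, too few to compare.

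**Figure D3:**
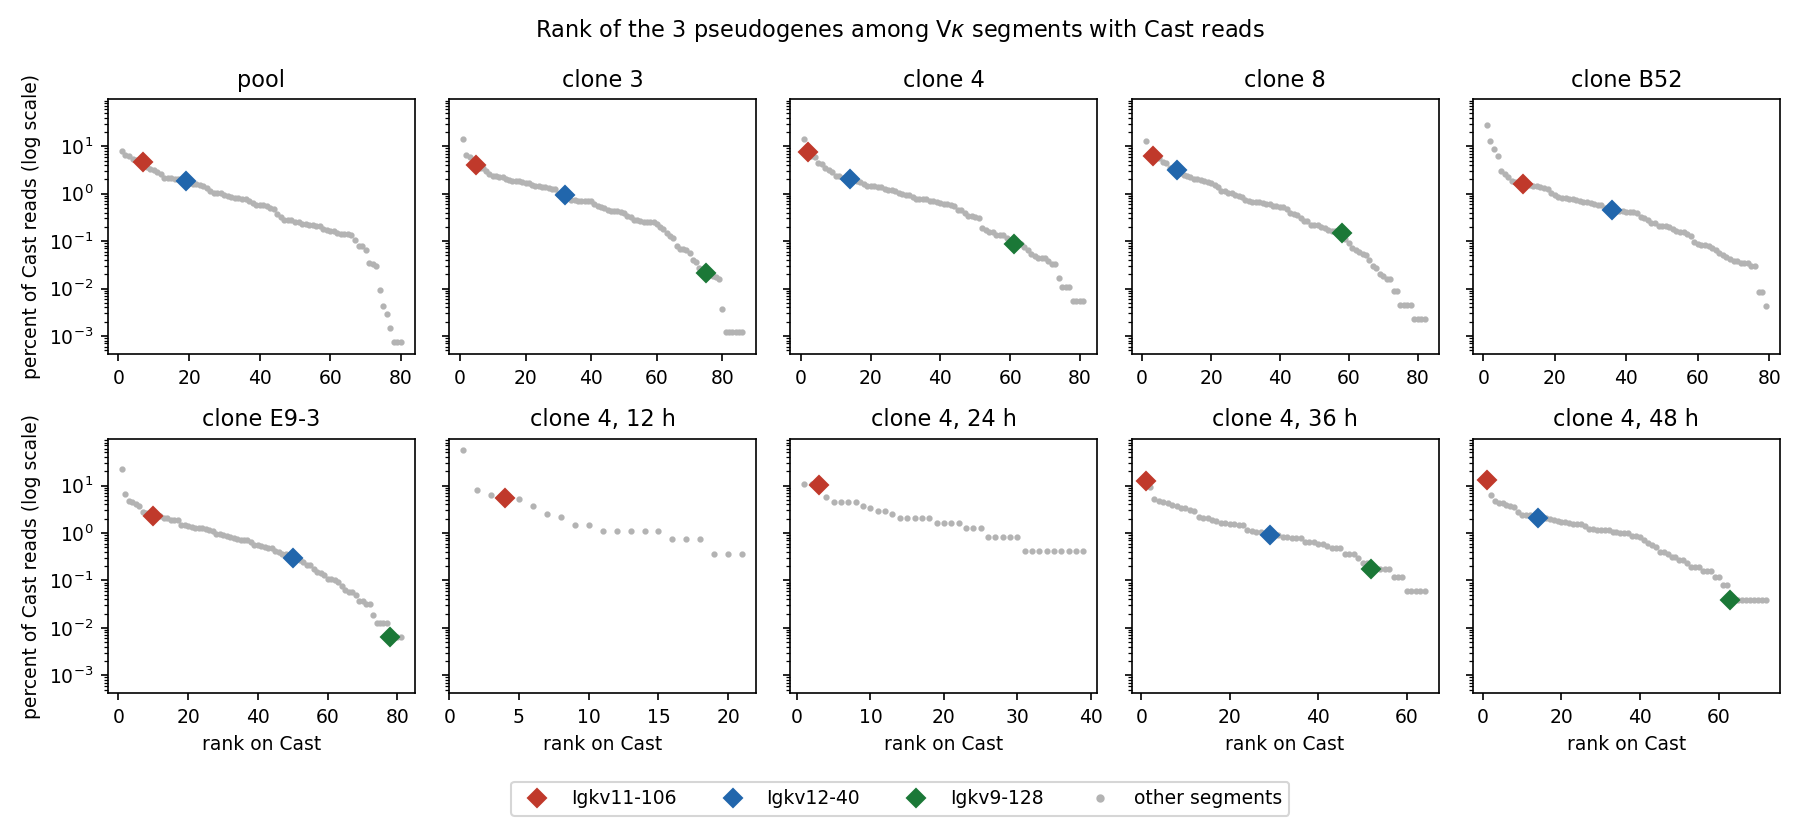
Percent of Cast reads (y axis, log scale) against rank on Cast (x axis) for the segments with Cast reads in each of the 10 libraries, with the 3 pseudogenes as coloured diamonds and the others in grey. Igkv11-106 lies among the first 11 segments in each library and first at 36 h and 48 h of the clone 4 time course, and Igkv9-128 lies in the lower tail wherever it was read.

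The segments most like the pseudogenes in sequence were functional and had B6 reads. Igkv11-106 was 88.4% identical in its coding exons to Igkv11-125, the other member of its family, which had 1069 B6 and 919 Cast reads over the 10 libraries. In the pool, Igkv11-125 had 147 Cast reads, or 0.108% of Cast reads, against 4.74% for Igkv11-106. Next came Igkv14-111 (77.8%, 7251 B6 and 10824 Cast reads) and Igkv14-130 (76.7%, 6 and 16). Igkv12-40 was 93.1% identical to Igkv12-46 (7286 B6 and 13129 Cast reads), 92.5% to Igkv12-44 (10138 and 1) and 91.1% to Igkv12-41 (4379 and 5314). Igkv12-44 had the opposite pattern to Igkv12-40, with B6 reads in all 10 libraries and a single Cast read, in clone 8. Igkv9-128 was 89.5% identical to Igkv9-123 (348 B6 and 142 Cast reads) and 85.6% to Igkv9-124 (1218 and 6938) and to Igkv9-129 (2444 and 1127). Within the clone 4 time course alone, Igkv11-125 (0 B6 and 94 Cast reads) and Igkv9-124 (0 and 75) also had Cast reads only. The other relatives named had B6 reads there, except Igkv14-130, which had no read. The pseudogenes were between 70.5% and 74.1% identical to one another. Reads of related segments can be split between them by an alignment, and how often this happened was not tested.

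**Figure D4:**
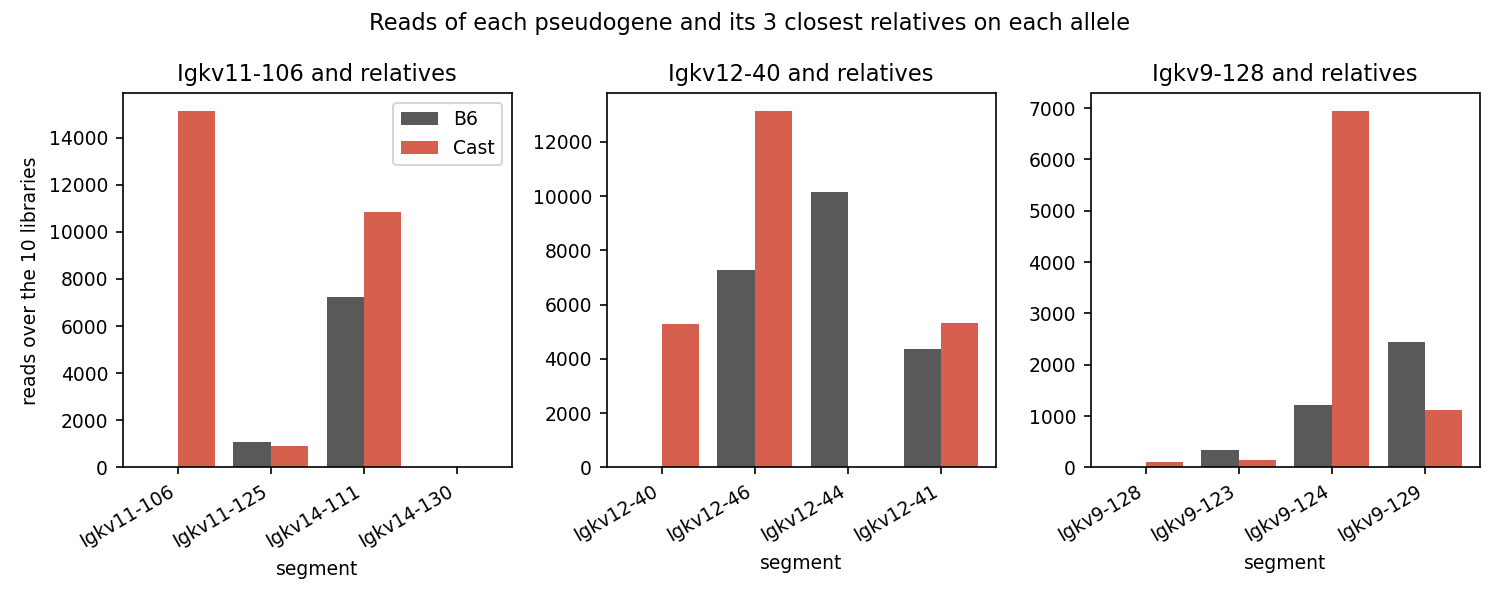
Reads over the 10 libraries (y axis, linear from 0) on the B6 allele (grey) and the Cast allele (red) for each pseudogene and its 3 closest relatives in sequence (x axis). The pseudogenes have no grey bar, Igkv12-44 has 10138 B6 reads and 1 Cast read, and Igkv12-46 and Igkv14-111 have tall bars on both alleles.

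The neighbours of the pseudogenes in the locus were read on both alleles. Igkv2-109 and Igkv16-104, on either side of Igkv11-106 at 36368 and 85579 bases, had 1804 and 1425 B6 reads in the pool, and 2963 and 851 Cast reads. Igkv12-41 and Igkv5-39, on either side of Igkv12-40 at 20465 and 20604 bases, had 1636 and 1553 B6 reads and 2782 and 1429 Cast reads. Igkv9-129 and Igkv17-127, on either side of Igkv9-128 at 7142 and 13278 bases, had 491 and 2959 B6 reads and 221 and 1195 Cast reads in the pool, where Igkv9-128 itself had none. Thus the B6 copies of the flanking segments were read in the same library in which the pseudogenes had 0 B6 reads.

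Of the other 10 annotated pseudogenes, 7 had B6 reads. On the B6 sequence, Igkv4-77, whose V exon contained 1 stop codon, was read 3387 times on B6 and 1969 times on Cast. Igkv4-75, with 2 stop codons in the best reading frame of its V exon and 5 in the frame of its annotated transcript, was read 2700 times on B6 and never on Cast. No stop codon was found in the V exons of Igkv4-60 (1313 reads on B6, 0 on Cast), Igkv4-56 (1143 and 17) or Igkv4-73 (1341 and 116). Igkv2-116 and Igkv1-115 had more Cast than B6 reads, with 2135 against 971 and 924 against 144. Igkv2-95-2 and Igkv12-47 had no read on either allele, and directly after their annotated V exons stood the letters TTTTTTT and CAAGTGA. A stop codon in the B6 V exon was found in Igkv4-77 and Igkv4-75, which had B6 reads, and in Igkv12-40 and Igkv9-128, which had Cast reads only. It was also found in Igkv2-95-2, which had no read on either allele. Any bearing of the stop codons on the reads was not tested.

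Across the pool and clones, the segments whose log2 share of Cast reads varied most like that of Igkv11-106 were Igkv14-111 (Pearson's r = 0.99 over 6 libraries), Igkv12-41 (0.97) and Igkv9-120 (0.94). For Igkv12-40 they were Igkv5-48 (0.97), Igkv5-45 (0.96) and Igkv5-43 (0.95), and for Igkv9-128 they were Igkv9-129 (0.93), its neighbour, Igkv4-77 (0.89) and Igkv11-125 (0.85). All of these segments had B6 reads. Between Igkv11-106 and Igkv12-40 the value was 0.90, and with Igkv9-128 it was 0.52 and 0.37. The segments of a library share its Cast total, the libraries differ in depth, 80 segments were compared for each, and these values are a description only. Over all 10 libraries the value for Igkv14-111 was 0.83, and for Igkv12-41 and Igkv9-120 it was 0.32 and 0.13. For Igkv5-48, Igkv5-45 and Igkv5-43 with Igkv12-40 it was 0.81, 0.49 and 0.88, and for Igkv9-129, Igkv4-77 and Igkv11-125 with Igkv9-128 it was 0.70, 0.89 and 0.68. Over the same 10 libraries it was 0.29 between Igkv11-106 and Igkv12-40, 0.66 between Igkv11-106 and Igkv9-128, and -0.10 between Igkv12-40 and Igkv9-128.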

How the data were processed

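Igκ VJ-seq libraries of the pool, the 5 clones at 48 h and clone 4 at 4 times were analysed (10 of the 32 samples). Quality-trimmed reads were placed by the authors on an mm10-based genome holding both B6 and Cast sequence (bowtie2) and counted per segment (HTSeq). Versions are not given in the sources used here. Raw read counts were deposited for each allele of 112 Vκ segments, with library totals from 1174 to 320951. No normalization was applied by the authors in these files. Read lengths differed between libraries (150 or 250 bases), and which libraries had which is not given. The ATAC-seq and nuclear RNA samples were not analysed here.

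From the counts, shares with Clopper-Pearson intervals, ranks and two-sided Fisher's exact tests with Benjamini-Hochberg adjustment were computed (Python 3.11.15, SciPy 1.17.1, pandas 2.3.3). Segments needed 20 Cast reads over the pair, and passed at an adjusted p under 0.05 and at least 2-fold. The test was checked on simulated counts with counting error only, so that the check does not cover the excess variation between libraries. No count model was fitted, because no condition had replicates within a table. Alignments used Biopython 1.88, and coordinates and gene types GENCODE M21, in which 111 segments were found by name. Log2 shares used 0.5 added reads. The segments and lists were chosen with earlier results of these data known. Segments named were the 3 pseudogenes, their 3 closest relatives, neighbours and most alike segments, the 3 just outside the rule, all pseudogenes and the top Cast segment of each library. Igkv10-96 was left out as an alternative chosen after seeing the data.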

Additional observations from a re-analysis of the deposited data

How the results depend on the processing

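Only clone 4 at 48 h has 2 libraries, so that differences between clones or times have no replicate check of their own, and 12 h and 24 h hold 274 and 241 Cast reads. The median share of Cast reads over the clones ranged, with 1 clone left out at a time, from 3.15% to 5.03% for Igkv11-106, from 0.680% to 1.48% for Igkv12-40, from 0.0137% to 0.0543% for Igkv9-128 and from 3.77% to 7.19% for their sum, and it was the same with the time-course library for clone 4. No paired analysis was possible because the VJ-seq libraries carry no replicate numbers. The sum of the 3 was 2.80% in the pool and 3.51% at 48 h of the time course with all reads as the denominator, 1.84% and 2.12% without Igkv11-106, and 4.74% and 13.0% without Igkv12-40. Of segments passing between libraries, 652 among the pool and clones became 334 at 4-fold and 333 with divided counts. Of 35 between times, 13 passed at 4-fold, 2 with divided counts, 15 without Igkv10-96 and 55 with all reads as the denominator. Of 23 between the clone 4 libraries, 11 passed at 4-fold, 1 with divided counts and 36 by adjusted p alone. Among the 15 pairs of the pool and clones, Igkv11-106 passed in 7, in 7 with divided counts and in 5 with all reads. Igkv12-40 passed in 11, 9 and 10, against 652, 333 and 667 of 1117 comparisons over all segments. Between times, at low counts, Igkv11-106 passed in 2 of 6 pairs, 0 with divided counts and 3 with all reads. Igkv12-40 passed there in 1 of 3 pairs, 0 and 1. No such count is given for Igkv9-128. Segments with Cast reads and 0 B6 reads numbered 4 over all libraries and 7 within the time course alone. No comparison that passed in the setting reported changed direction. Igkv11-106 at 24 h over 12 h and Igkv12-40 at 48 h over 12 h (0 reads at 12 h) reached 2-fold only with all reads as the denominator. There they passed at 2.47 and at least 2.80. By adjusted p alone, Igkv12-40 at 48 h over 12 h passed on Cast reads as well (adjusted p = 0.025, Fisher's exact test). Without Igkv10-96 these ratios were at 0.95 and, with 3 reads in place of 0, at 0.89.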
